A study of Mus musculus with 6 samples.

Results

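The 9 genes described here encode proteins of the endothelial tight junction, and they were taken by gene symbol from a table of 56748 genes counted in sorted endothelial cells (ECs) of the mouse spinal cord. They are *Cldn5*, *Ocln*, *Tjp1*, *Cgn*, *F11r*, *Jam2*, *Jam3*, *Esam* and *Lsr*, and each symbol had 1 row. RNA-Seq was done on 3 control mice, which carry the floxed *Tardbp* gene (Tardbpflox) and no Cre, and on 3 TDP-43iΔEC mice (Cdh5(PAC)-CreERT2;Tardbpflox), in which a tamoxifen-inducible Cre driven by the EC promoter of *Cdh5* deletes *Tardbp*, the gene of the RNA-binding protein TDP-43. Both groups received tamoxifen (1 mg/mL) from P5 to P7, both were on a C57BL/6 background with male and female mice mixed, and spinal cord ECs were sorted at P16. The labels and the paper's text do not say whether mice were pooled, and each library is taken here as 1 mouse. In the plots, KO stands for TDP-43iΔEC.

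Tight junctions seal the cleft between neighboring ECs and are a defining feature of the blood-CNS barriers. Claudins and occludin span the membrane, adhesion molecules of the immunoglobulin superfamily (JAM-A, JAM-B, JAM-C and ESAM) contribute to cell-cell contact, and lipolysis-stimulated lipoprotein receptor marks the points where several cells meet. Scaffold proteins such as ZO-1 and cingulin tie these membrane proteins to the actin cytoskeleton. Claudin-5 is the dominant claudin of CNS endothelium, and mice without it have a barrier that leaks small molecules. The comparison asks whether the mRNA levels of these genes differed in ECs that had lost TDP-43.

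The libraries held 25704871 to 47270654 counts, and TDP-43iΔEC mice 2 and 3 (28228980 and 25704871) were less deeply sequenced than the other 4. *Tardbp* had 55.3, 61.9 and 58.5 CPM (counts-per-million, TMM-scaled) in control mice 1, 2 and 3. In TDP-43iΔEC mice 1, 2 and 3 the values were 26.6, 16.1 and 11.8, so every library was on the side that its label gives. The deletion removes 1 exon and the counts cover the whole gene, and its fitted log2 fold change of -1.62 had a limma adjusted p of 0.287. All 10 EC marker genes were detected, and their summed level was 8412.6 to 10756.7 CPM in control mice and 8842.9 to 9725.3 in TDP-43iΔEC mice. *Slc2a1* was the largest part of the sum (means 3853.1 and 3622.2 CPM). Taken singly, *Kdr* and *Tek* were lower and *Egfl7* higher in TDP-43iΔEC mice without overlap, as were 7.93% and 7.4% of all tested genes. The other EC markers overlapped, and limma called 0 of the 10. Of 5 epithelial and ependymal markers, *Epcam*, *Cdh1*, *Krt8* and *Krt18* had 0 counts in every library. *Foxj1*, the ependymal marker of the list, had 0.699 CPM in control mouse 1, 0.385 in TDP-43iΔEC mouse 2 and 0 in the other libraries. Summed markers of 3 other cell types did not overlap between the genotypes. The 5 red cell genes, of which all 5 were detected, summed to 6935 to 10575.7 CPM in control mice and 2034.1 to 2883.8 in TDP-43iΔEC mice, and 4 of them, the globin genes, were lower past the threshold. The 5 astrocyte genes summed to 231.3 to 256 CPM and 128.3 to 175 CPM, mostly from *Gja1*, which ECs also express, and the 5 neuron genes to 3.19 to 10.3 CPM and 0.864 to 2.99 CPM. The part of these lists in the values below was not tested, and leaving the hemoglobin genes out is given beside *Jam2*. Oligodendrocyte genes (all 6 detected) spanned 323.2 to 626.9 CPM in control mice and 15.5 to 512.6 in TDP-43iΔEC mice, and the ranges of mural, fibroblast and microglial genes overlapped as well. In such bulk samples, fewer cells of a type and less RNA per cell cannot be told apart.

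The members differ widely in gene structure. *Cldn5* (ENSMUSG00000041378.3, chr16:18595597-18597012 of GRCm39, plus strand) is a single exon of 1416 bases without introns. At the other end, *Tjp1* (ENSMUSG00000030516.15, chr7:64945898-65177529, minus strand) spans 231632 bases. TDP-43 binds UG-rich RNA, so runs of at least 6 TG repeats in a row were counted on the transcribed strand of each gene, introns included. Such runs were present in 6 of the 9 genes, and in 71.9% of 11340 protein-coding genes tested for expression. *Cldn5*, *Cgn* and *Lsr* had none, *Tjp1* had 32, *Jam3* 19, *Ocln* 15, *F11r* 6, and *Jam2* and *Esam* 3 each. Per length, *Jam3*, *Esam*, *Ocln* and *F11r* had 31, 29.2, 25.3 and 21.5 runs per 100 kb, *Tjp1* 13.8 and *Jam2* 5.71. The pooled value over the protein-coding genes was 10.5. Among these genes taken singly, the density of *Jam2* was at percentile 41.9 and that of *Tjp1* at 79.6. Those of *F11r*, *Ocln*, *Esam* and *Jam3* were at percentiles 93 to 97.5. The longest intronic runs of *Jam2*, *F11r* and *Esam*, the members with the lowest unadjusted p, and of *Tjp1*, which had the most runs, are shown from the GRCm39 genome as RNA of the kind that TDP-43 is known to bind. They are written 5′ to 3′ on the transcribed strand with the repeat in capitals, and a match is a description of the letters, since binding was not measured here. The longest run of *F11r*, of 31 repeats, overlaps an exon and is not shown.

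Jam2 (chr16:84574207-84574268, plus strand, 11 repeats): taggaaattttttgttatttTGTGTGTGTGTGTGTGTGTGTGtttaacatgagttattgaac

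F11r (chr1:171287066-171287157, plus strand, 26 repeats): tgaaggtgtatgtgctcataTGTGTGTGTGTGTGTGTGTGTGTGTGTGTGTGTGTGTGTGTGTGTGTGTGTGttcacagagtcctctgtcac

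Esam (chr9:37444183-37444270, plus strand, 24 repeats): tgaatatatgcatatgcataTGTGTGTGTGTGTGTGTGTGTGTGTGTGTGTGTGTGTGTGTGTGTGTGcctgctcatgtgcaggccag

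Tjp1 (chr7:65082547-65082640, minus strand, 27 repeats): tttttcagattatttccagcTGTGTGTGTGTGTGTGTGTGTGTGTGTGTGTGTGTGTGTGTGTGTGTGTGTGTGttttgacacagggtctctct

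Tight junction mRNAs differed in level by several orders of magnitude. To set genes beside each other, counts were divided by the union length of a gene's annotated exons and brought to the same total in each library, in the manner of TPM. This scale has no TMM factors and serves to order genes within a group, while genotypes are compared by CPM further below. The 2 scales can differ between genotypes. For *Tjp1*, control and TDP-43iΔEC means were 83.8 and 91.1 per length, but 219.5 and 207.4 in TMM-scaled CPM. On this per-length scale, *Cldn5* was the highest member by far, with 13856.3 ± 4148.1 in control mice and 13834.5 ± 3159.5 in TDP-43iΔEC mice (SD, n = 3 each). It ranked 2 among the protein-coding genes of control mice and 4 in TDP-43iΔEC mice. *Esam* came next, with a per-length level of 2281.2 ± 468.3 in control and 1988.4 ± 668.3 in TDP-43iΔEC mice, which was 16.5% and 14.4% of that of *Cldn5*. These first 2 positions did not overlap in either group.

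The middle of the order was held by *Lsr* and *F11r*. In control mice, *Lsr* had a mean per-length level of 456.8 and *F11r* of 322.5, whereas in TDP-43iΔEC mice *F11r* (464.9) was above *Lsr* (410.6). Their ranges overlapped in both groups, so this switch of places was within the spread between mice. *Jam2*, *Ocln* and *Tjp1* formed a lower tier, with control means of 113.5, 86.6 and 83.8 and TDP-43iΔEC means of 86.2, 85.4 and 91.1. Neighbors within this tier overlapped in both groups. *Jam3* was lower still (5.52 ± 5.68 and 5.9 ± 4.77). *Cgn* (ENSMUSG00000068876.17, chr3:94667376-94695136), the gene of cingulin, had 0 counts in all 6 libraries. By sequencing depth alone, a gene with up to 3 counts could have been missed at 0.0617 to 0.116 CPM. RNA lost before sequencing is not covered by this limit. For instance, *Jam3* had 0 counts in control mouse 2, but 23.5 and 12.5 CPM in control mice 1 and 3. *Cgnl1*, which encodes the related scaffold paracingulin, was counted at 150.9 CPM on average in control mice.

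**Figure D1:**
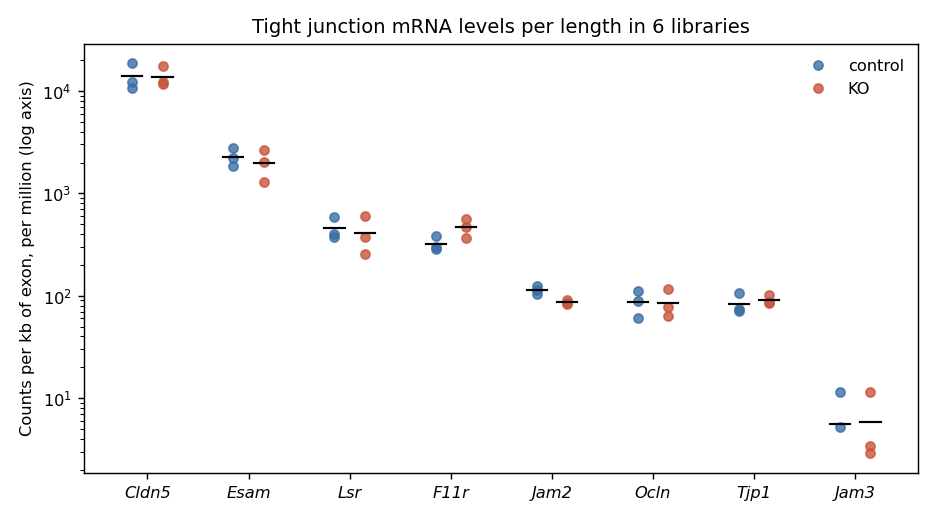
Levels per length of 8 tight junction genes (TPM-like, counts per kb of exon, log axis) in 3 control and 3 TDP-43iΔEC (KO) mice, each dot 1 mouse and each bar the group mean. *Cldn5* lies at or above 10701.1 in every library and *Jam3* at or below 11.4. The library in which *Jam3* had 0 counts (control mouse 2) cannot be drawn on a log axis, and *Cgn*, with 0 counts throughout, is left out.

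Among the claudins, *Cldn5* stood nearly alone. Of 26 claudin genes in the table, 17 had 0 counts in every library, including the epithelial claudin genes *Cldn1*, *Cldn2*, *Cldn4* and *Cldn7*. *Cldn5* made up 99.1% to 99.9% of the summed per-length level of all claudins in each library. The next most abundant were *Cldn11*, known from myelin, and *Cldn12*, with control means of 35.1 and 26.2 CPM. *Cldn11* had 27.4, 42.4 and 35.6 CPM in control mice 1, 2 and 3, whereas TDP-43iΔEC mice 1, 2 and 3 had 52.1, 7.16 and 0. The summed oligodendrocyte markers, which include *Cldn11*, were also lowest in TDP-43iΔEC mice 2 and 3, and the part of oligodendrocyte RNA in the *Cldn11* values was not tested. *Cldn12* had 23.9, 47 and 7.66 CPM in control mice, and TDP-43iΔEC mice had 22, 8.96 and 3.39, with overlapping groups. The traces of *Cldn3*, *Cldn6*, *Cldn9*, *Cldn10*, *Cldn15* and *Cldn23* were each absent from at least 2 libraries. Of the 5 claudins that passed the filter on low counts, limma called 0 (adjusted p from 0.6 to 0.976), and 0 had an unadjusted p under 0.05. edgeR and DESeq2 called 0 as well.

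In the comparison of the genotypes, none of the members passed the test, and the clearest difference was that of *Jam2*. limma with the voom transformation was run on 13107 genes, with Benjamini-Hochberg adjusted p and a threshold of 0.05. Of the 9 members, 8 passed the filter on low counts (*Cgn* did not), and 0 of the 8 were called, where the share over all genes tested was 0.137%. Without adjustment, 2 members, *Jam2* and *Esam*, had a p under 0.05, both lower in TDP-43iΔEC mice. That share over all tested genes was 9.27%. edgeR's quasi-likelihood test called 0 members, as it did of all genes (0%), and 1 member had an unadjusted p under 0.05, where the share over all genes was 6.47%. DESeq2's Wald test called 1 member, *Jam2*, and 1.91% of all genes, and 1 member had an unadjusted p under 0.05, against 8.49% of all genes. Of the 8 tested members, 6 had a log2 fold change below 0, as did 6646 of all 13107 tested genes. The median of the members was -0.23, and that over all tested genes -0.02. For 1 gene in 3 against 3 mice, the exact permutation test cannot go below p = 0.1.

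**Figure D2:**
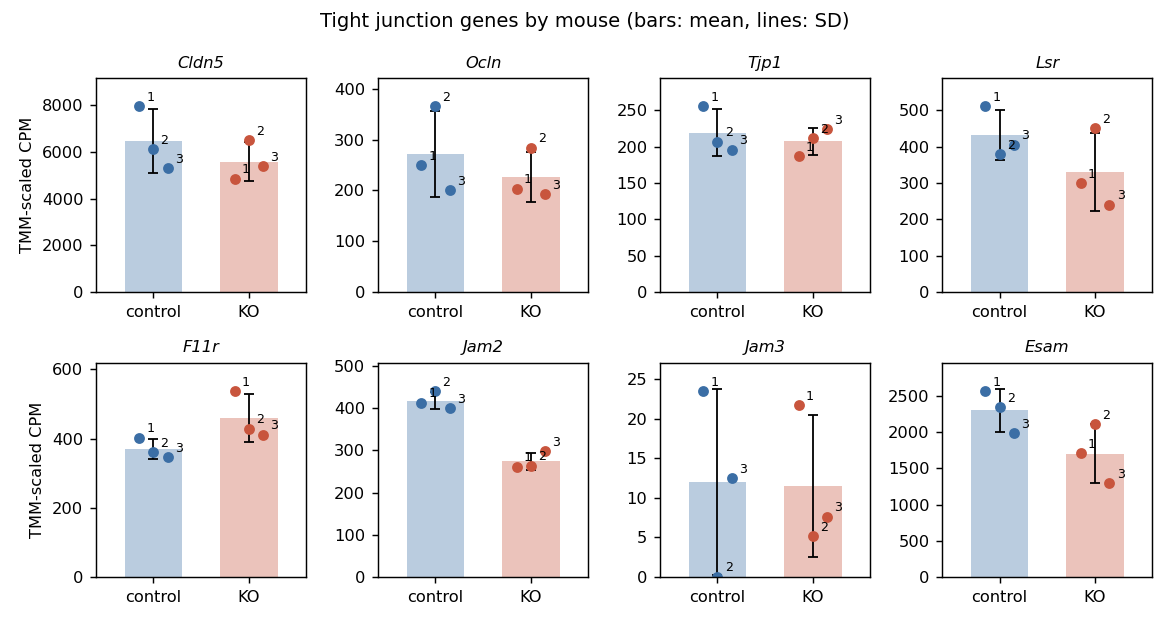
TMM-scaled CPM of 8 tight junction genes, with dots numbered by mouse, bars at the group mean and lines of 1 SD (n = 3 mice each). The groups separate for *Jam2* (400.8 to 441.1 in control, 261.5 to 297.9 in TDP-43iΔEC mice) and for *F11r*, and overlap for the other 6 genes.

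*Cldn5*, which encodes claudin-5, had 7955.2, 6126.5 and 5297.9 CPM in control mice 1, 2 and 3, whereas TDP-43iΔEC mice 1, 2 and 3 had 4851.6, 6497.5 and 5400.2. Control mouse 1 was the highest and TDP-43iΔEC mouse 1 the lowest, and the other 4 libraries were intermixed. On the log2 scale the difference was -0.22 with a standard error of 0.16 and a limma adjusted p of 0.671. It lay between -0.36 (without control mouse 3) and -0.06 (without control mouse 1) when 1 mouse was left out, with -0.1 without TDP-43iΔEC mouse 1 and -0.34 without TDP-43iΔEC mouse 2, and was -0.03 with scaling by library size alone. The 95% interval ran from 0.67-fold to 1.11-fold of the control level, so a level below 0.67-fold lies outside it, and smaller differences could not be resolved with 3 mice per group.

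*Ocln* (ENSMUSG00000021638.13, chr13:100630334-100689535) encodes occludin, a membrane-spanning protein of the junctional strands. Control mice had 249.8, 365.4 and 200.3 CPM of it, TDP-43iΔEC mice 203.1, 283.7 and 193.2. The groups overlapped, and control mice alone differed among themselves with a coefficient of variation of 31.2%. Its log2 fold change was -0.24 (standard error 0.26), with a limma adjusted p of 0.783 and a 95% interval of 0.561-fold to 1.28-fold. It was -0.01 without control mouse 2, -0.44 without control mouse 3, -0.41 without TDP-43iΔEC mouse 2, -0.16 without TDP-43iΔEC mouse 1 or 3, and -0.02 with sample quality weights.

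*Tjp1* encodes ZO-1, the PDZ scaffold that binds the tails of claudins and JAM proteins. Its CPM were 255.6, 206.9 and 196 in control mice, and in TDP-43iΔEC mice 186.8, 211.7 and 223.8. They overlapped almost fully, and the log2 fold change of -0.09 had a standard error of 0.19, a limma adjusted p of 0.892 and a 95% interval of 0.696-fold to 1.26-fold. The sign of this small value was not stable, since scaling by library size alone turned it to 0.1, and it was also positive without control mouse 1 (0.02).

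*Lsr* (ENSMUSG00000001247.17, chr7:30657195-30673340) encodes the lipolysis-stimulated lipoprotein receptor, or angulin-1, of tricellular contacts. Control mice had 511.3, 380 and 406.2 CPM of it, TDP-43iΔEC mice 299.2, 451.1 and 241.2. TDP-43iΔEC mouse 2 lay among the control mice and the other 2 below them. Between the groups the log2 fold change was -0.42, with a standard error of 0.23 and a limma adjusted p of 0.59, and it was -0.65 without TDP-43iΔEC mouse 2 and -0.26 without TDP-43iΔEC mouse 3. Of the exon bases of *Lsr*, 38.2% are covered by *Fam187b* and 2 predicted genes of the other strand, and reads were counted without use of the strand. This is a share of bases, and the part of the *Lsr* counts that came from those genes was not measured.

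The 4 adhesion molecules of the immunoglobulin superfamily did not share 1 direction. *Jam2* (ENSMUSG00000053062.17, chr16:84570764-84623269), the gene of JAM-B, had 413.2, 441.1 and 400.8 CPM in control mice 1, 2 and 3, whereas TDP-43iΔEC mice 1, 2 and 3 had 261.5, 263.8 and 297.9. Every TDP-43iΔEC mouse was below every control mouse, and the spread within a group was small (418.4 ± 20.7 and 274.4 ± 20.4 CPM, SD, n = 3 mice each). On the log2 scale *Jam2* differed by -0.62 with a standard error of 0.15, or 0.651-fold of the control level with a 95% interval of 0.514-fold to 0.825-fold. With groups that did not overlap, the exact permutation test gave its smallest possible value (2-sided p = 0.1), as it also did for *F11r*. By its p in limma, *Jam2* ranked 130 of 13107 genes. After adjustment over all genes its limma p was 0.271. Over the 16 alternatives tried, the log2 fold change stayed between -0.66 and -0.43 and the adjusted p ranged from 0.0215 (DESeq2, the alternative that passed the threshold) to 0.629 (limma without TDP-43iΔEC mouse 1). With ribosomal RNA, mitochondrial and hemoglobin genes left out, the log2 difference of *Jam2* was -0.59, and with scaling to 8 EC genes it was -0.61. Exons of *Atp5pf* on the other strand cover 4.38% of those of *Jam2*.

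*F11r* (ENSMUSG00000038235.5, chr1:171265092-171292958), the gene of JAM-A, was the most abundant of the 3 JAM genes on the per-length scale. Its CPM were 402.7, 360.8 and 346.6 in control mice, and in TDP-43iΔEC mice 537.4, 428.8 and 410.9. All 3 TDP-43iΔEC values lay above the control values, although TDP-43iΔEC mouse 3 exceeded control mouse 1 by little. For *F11r* the log2 fold change was 0.33, with a standard error of 0.16 and a limma adjusted p of 0.564, with a 95% interval of 0.97-fold to 1.63-fold, and it was 0.18 without TDP-43iΔEC mouse 1, which had the highest value. Groups that did not overlap were found for 7.93% of all tested genes with TDP-43iΔEC lower, as for *Jam2*, and for 7.4% with TDP-43iΔEC higher, as for *F11r*.

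*Esam* (ENSMUSG00000001946.15, chr9:37439344-37449615) encodes an adhesion molecule of ECs and platelets. Control mice had 2569.1, 2348.7 and 1982.3 CPM of it, TDP-43iΔEC mice 1710.6, 2111.9 and 1293.5. Only TDP-43iΔEC mouse 2 reached into the control range. For *Esam* the log2 fold change was -0.44 (standard error 0.17) with a limma adjusted p of 0.495, and with a 95% interval of 0.566-fold to 0.965-fold before any adjustment. Without TDP-43iΔEC mouse 3 the value was -0.28, and with scaling by library size alone -0.25. Platelet markers, of which all 4 were detected, summed to 2.34 to 8.88 CPM in control mice and 0.391 to 8.06 in TDP-43iΔEC mice, and their part in the *Esam* values was not tested.

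*Jam3* (ENSMUSG00000031990.16, chr9:27005652-27066915), the gene of JAM-C, was the lowest of the detected members and had 0 counts in 1 library. Control mice had 23.5, 0 and 12.5 CPM of it, TDP-43iΔEC mice 21.7, 5.17 and 7.6. The means were 12 ± 11.8 and 11.5 ± 8.91 CPM (SD, n = 3 mice each), and the groups overlapped. The fitted value of 2.9 on the log2 scale (standard error 2.28, limma adjusted p = 0.687) came from the 0 in control mouse 2, and without that mouse it was -0.63. Exons of *Ncapd3* and a predicted gene, both on the other strand, cover 31.5% of its exon bases.

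**Figure D3:**
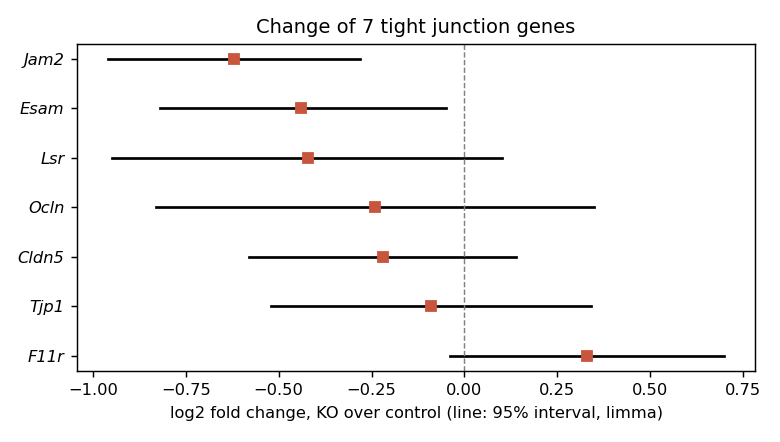
Log2 fold change of TDP-43iΔEC (KO) over control mice for 7 tight junction genes, with 95% intervals from limma before adjustment over genes. *Jam2* has the lowest value (-0.62) and *F11r* the highest (0.33). *Jam3* is not drawn, since its interval ran from -2.28 to 8.07.

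A ratio of 2 members within a library does not depend on how libraries are scaled. These ratios were looked at after the values were seen and are given with no test. On the per-length scale, *F11r* exceeded *Jam2* 3.12, 2.61 and 2.76-fold in control mice 1, 2 and 3. In TDP-43iΔEC mice 1, 2 and 3 the values were 6.57, 5.2 and 4.41-fold. The balance of JAM-A to JAM-B mRNA was thus higher in each TDP-43iΔEC mouse than in each control mouse (2.83 ± 0.257 and 5.39 ± 1.09, SD, n = 3 each). *F11r* was higher and *Jam2* lower in every TDP-43iΔEC mouse, so this separation was fixed by those values and adds no support to them. The size of such a ratio depends on the lengths used. By the longest transcript (5412 bases for *Jam2*, where the union of its exons is 11064), the mean levels of *F11r* and *Jam2* were 266 and 183.5 in control and 379.8 and 138 in TDP-43iΔEC mice. The ratio of *Tjp1* to *Jam2* was separated as well, with 0.734 ± 0.114 in control and 1.06 ± 0.0618 in TDP-43iΔEC mice. The ratios of *Cldn5*, *Ocln*, *Lsr* and *Esam* to *Jam2* overlapped between the groups. *Cldn5* to *Tjp1* was 163.7 ± 11.6 and 150.7 ± 19, and *Cldn5* to *Ocln* 165.8 ± 50.6 and 165.1 ± 17.7, both with overlap.

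Across the 6 libraries, *Cldn5* went with *Tjp1* (Pearson r = 0.851, Spearman correlation 0.829), *Lsr* (0.76 and 0.714) and *Esam* (0.72 and 0.771) on the log2 CPM scale, less so with *Ocln* (0.517 and 0.543) and *Jam2* (0.422 and 0.486), and least with *F11r* (-0.297 and -0.143). These correlations describe 6 points that share their scaling. Without control mouse 1 and TDP-43iΔEC mouse 1, the 2 libraries farthest from the median of *Cldn5*, r for *Tjp1* was 0.111, so that relation rests on them. For *Ocln*, *Esam*, *Lsr*, *F11r* and *Jam2*, r was then 0.821, 0.61, 0.566, 0.45 and -0.28, so the order of the members also changed. Of 3240 genes with a mean of at least 50 CPM, the 5 whose levels followed those of *Cldn5* most closely were *Nos3* (r = 0.988), *Dusp3* (0.971), *Eng* (0.962), *Cops7a* (0.956) and *Ece1* (0.954). *Nos3* encodes endothelial nitric oxide synthase and *Eng* endoglin, a TGF-β co-receptor of ECs. The Spearman correlations of the 5 ran from 0.771 (*Eng* and *Cops7a*) to 1 (*Dusp3*). The lowest of the 5 values of r without the same 2 libraries was 0.859, for *Ece1*. The 5 were chosen by r over all 6 libraries, so a value from part of these libraries is not a separate check.

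The wider set of junction genes was also without a gene past the threshold. Of 41 other tight junction genes listed, 37 had at least 1 count and 34 were tested. limma called 0 of them, and 2 had an unadjusted p under 0.05, *Rap1a* higher and *Sympk* lower in TDP-43iΔEC mice. These were 5.88% of the tested genes of the list, below the 9.27% over all tested genes. edgeR and DESeq2 called 0 too, each with 1 gene at an unadjusted p under 0.05. The median log2 fold change was -0.14, against -0.02 over all tested genes. Of the 34 values, 20 were below 0, as were 6646 of the 13107 over all tested genes.

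*Tjp3*, which encodes the epithelial scaffold ZO-3, had 0 counts in every library. *Cgnl1* had 167.3, 155.2 and 130.2 CPM in control mice, and TDP-43iΔEC mice had 107.4, 117.6 and 113.9. Its groups did not overlap, and its log2 fold change was -0.42 (standard error 0.21, limma adjusted p = 0.564). The other scaffold genes with the highest levels, *Amotl1*, *Afdn*, *Amotl2* and *Magi3*, had adjusted p of 0.596 to 0.913 in limma, and the groups of each overlapped.

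Genes of the tricellular junction were few. *Ildr2*, which encodes an angulin related to the *Lsr* product, had 50.9 CPM on average in control and 41.7 in TDP-43iΔEC mice (limma adjusted p = 0.863), and *Ildr1* had 0 counts. *Marveld2*, the gene of tricellulin, had 16.4, 14.6 and 10.4 CPM in control mice, and TDP-43iΔEC mice had 39.2, 26.8 and 0, with the lowest and the highest value in the same group. Its relative *Marveld3* had 0 counts. Among other membrane partners, *Igsf5*, which encodes JAM4, had 61.5 and 35.5 CPM (adjusted p = 0.654), *Pals1* of the Crumbs complex 41.6 and 30.7 (0.799), and *Clmp*, *Patj*, *Cxadr* and *Crb3* stayed below 10 CPM on average in both groups.

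Of the polarity genes, the GTPase gene *Cdc42* was the most abundant, with 967.2 CPM in control and 1007.3 in TDP-43iΔEC mice (log2 fold change 0.08, standard error 0.16, limma adjusted p = 0.883). *Rap1a*, which encodes a GTPase that strengthens endothelial junctions, had 44.1, 44.6 and 28.5 CPM in control mice, and TDP-43iΔEC mice had 75, 79.9 and 61.8, without overlap. Its log2 fold change was 0.93 (standard error 0.3), and the adjusted p of 0.42 from limma did not pass the threshold. *Rap1b*, its close paralog, had 107.3 and 102.6 CPM (adjusted p = 0.974), and *Pard3*, *Pard6g* and *Pard3b* had 6.71 to 25.8 CPM on average with adjusted p of 0.794 to 0.923.

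Among the regulators at the junctional plaque, *Arhgef2*, which encodes the GTPase exchange factor GEF-H1, was at 82.2 and 84.3 CPM (limma adjusted p = 0.978). *Rock1* and *Rock2*, which encode kinases that act on actomyosin, had 69.4 and 67.8 CPM and 72.4 and 99.4 CPM (adjusted p = 0.982 and 0.652). *Sympk*, the gene of symplekin, had 31.5, 47.7 and 34.6 CPM in control mice, and TDP-43iΔEC mice had 7.77, 15.2 and 41.7. TDP-43iΔEC mouse 3 lay within the control range and the other 2 below it, and on the log2 scale the difference was -1.4 (standard error 0.56) with a limma adjusted p of 0.504. *Arhgap17* and *Ybx3* had adjusted p of 0.614 and 0.99. *Vasp*, which encodes an actin regulator and was picked out after its values were seen, was higher in each TDP-43iΔEC mouse (21.7 to 22.4 CPM) than in each control mouse (9.54 to 20.2), and its adjusted p was 0.685.

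**Figure D4:**
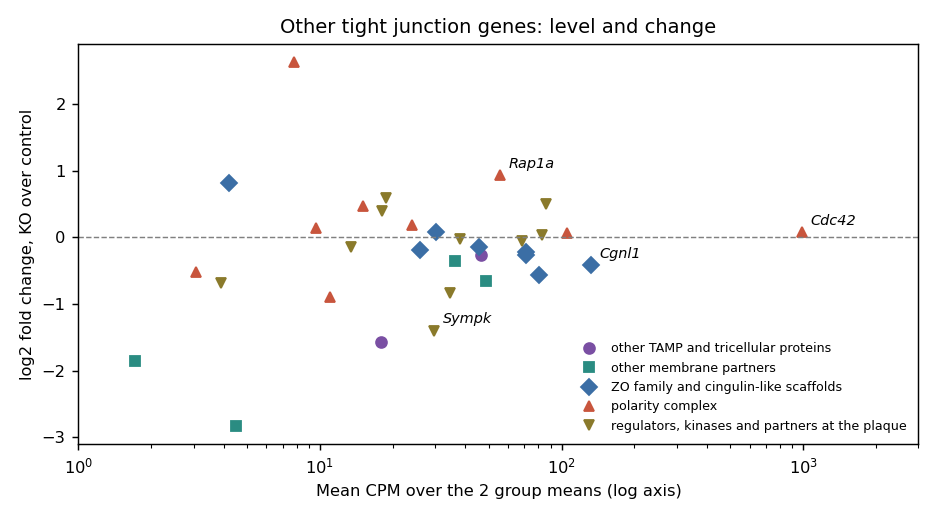
Log2 fold change of TDP-43iΔEC over control mice (vertical) against mean CPM (horizontal, log axis) for tested genes of the wider tight junction list, by role. *Rap1a* (0.93) and *Sympk* (-1.4) are the 2 of the list with an unadjusted p under 0.05, and the points farthest from 0 lie at low levels.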

How the data were processed

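RNA was extracted from ECs sorted from P16 spinal cords, 1 library per sample, with SMARTseq2 libraries read in pairs. Per the submitters' processing notes and the paper, the authors aligned reads to GRCm39 with STAR 2.7.8a and quantified genes with RSEM 1.3.0. The table deposited by the authors holds RSEM's estimated counts, unscaled, and 0 of its values were not whole. Without molecular identifiers, PCR copies of a cDNA cannot be separated from it. Input RNA and PCR cycles varied between samples, and which library received which is not given in the sources used here. Coordinates, exon lengths and overlaps came from GENCODE M39 (GRCm39), which matched 98.7% of the gene identifiers.

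The members, lists and tests were chosen with earlier results of these data known. Genotypes were compared in R 4.3.3 with limma 3.58.1 (voom, no covariate), as the paper's methods name, after TMM scaling and filterByExpr of edgeR 4.0.16. CPM (counts-per-million) were scaled by TMM. Alternatives used edgeR's quasi-likelihood test, DESeq2 1.42.0, other scalings and filters, a replicate block and each mouse left out. Genes of each role were named by level (the 6 highest) or by an unadjusted p under 0.05, and the 5 most like *Cldn5* by correlation. Claudins below the 6 highest, *Vasp* and junction genes at 0 counts were named after their values were seen. The fit was tested on simulated counts. By a chi-square test of their counts, libraries of a group differed beyond sampling noise (lowest value over its degrees of freedom 185.1), so none repeats the counts of another. Separate amplification can also give such differences, so the test does not show that libraries came from separate mice. Each was taken as a sample of its own, as labeled. p values measure the spread between libraries, in which differences between mice and between preparations cannot be told apart, and 3 per group limits the precision. Some genes of these lists are not reported here.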

Additional observations from a re-analysis of the deposited data

How the results depend on the processing

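Over the 16 alternatives, 0 to 250 genes were called against 18. The 14 that used limma called 0 to 76 genes and 0 tight junction members. edgeR called 0 genes, DESeq2 250 (1 member, *Jam2*, log2 fold change -0.57), scaling by library size alone 10, no filter on low counts 76 and at least 10 counts in every library 39. With 1 mouse left out, 0 to 13 genes and 0 members were called, with 0 without TDP-43iΔEC mouse 1 (960 at an unadjusted p under 0.05), 2 without TDP-43iΔEC mouse 3, 3 without TDP-43iΔEC mouse 2 or control mouse 1, 10 without control mouse 2 and 13 without control mouse 3. Leaving out 1 mouse gave log2 fold changes of -0.18 to 0.02 for *Tjp1* and -0.63 to 4.89 for *Jam3*. Scaling by library size moved the median of all genes to 0.18. In that setting the log2 fold changes, counted from 0 and not from this median, were -0.43 for *Jam2* and 0.51 for *F11r*. The sign turned for *Tjp1* with library size alone (0.1) and without control mouse 1 (0.02), and for *Jam3* with edgeR (-0.06), DESeq2 (-0.01), sample quality weights (-0.01) and without control mouse 2 (-0.63), which has 0 counts of it. *Jam3* was not tested with at least 10 counts in every library. *Cldn5*, *Ocln*, *F11r*, *Jam2*, *Esam* and *Lsr* kept their direction in all 16. Other tight junction genes and claudins past the threshold stayed at 0. With the longest transcript in place of the union of exons, the level of *Cldn5* in control mice was 10937.9 against 13856.3, and that of *Esam* 2778.1 against 2281.2. The order of the members was the same in control mice, while in TDP-43iΔEC mice *Jam2* (138) then lay above *Tjp1* (78.8).

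The labels number the samples of each genotype 1 to 3 and name no pairing. Same-numbered samples did not deviate together (r = -0.07, -0.13 and -0.02), and differently numbered ones had r of -0.04 to 0.12. With all values near 0, this check cannot show whether samples were paired. With the replicate number as a block, 22 genes and 0 members were called. By sequencing depth alone, a gene with up to 3 counts could be missed below 0.116 CPM, and RNA lost before sequencing is not covered by this value.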
